A study of Mus musculus with 6 samples.

Results

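The genes described here are the 37 genes of the mouse mitochondrial genome, out of 38924 genes in the count tables. They are every gene whose symbol starts with mt-, a rule that used no measured value, and comprise 13 protein genes, 2 rRNA genes and 22 tRNA genes. RNA was sequenced from microglia, the resident macrophages of the brain, taken from the whole organ by magnetic sorting for the surface protein CD11b, which other macrophages and neutrophils also carry. The animals were WT female mice of the C57BL/6 strain without treatment, 3 aged 5 weeks and 3 aged 24 weeks, with 1 library each, which served the study as controls for Het mice that were not analysed here. The comparison that these libraries allow is that of the ages. The 5-week and the 24-week libraries were sequenced in separate lanes, so that age and lane cannot be told apart.

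The mitochondrial genome is a small circular DNA that is read from both strands into long precursor RNAs. In the annotation used here, most genes lie on the plus strand, while the minus strand holds mt-Nd6 and 8 of the tRNA genes. The tRNAs sit between the other genes, and their excision by nuclear-encoded enzymes frees the mRNAs and rRNAs. The proteins are subunits of respiratory complexes I, III and IV and of the ATP synthase, whose remaining subunits are encoded in the nucleus, and the rRNAs build the mitochondrial ribosome. Nuclear DNA carries copies of parts of the mitochondrial genome, and a read that matches such a copy as well as the gene has no single position.

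The libraries held 23198065 to 46434788 gene counts at 5 weeks and 10410625 to 13554336 at 24 weeks. A single library with 0 counts of a gene therefore allows a level of up to 0.0646 to 0.288 CPM (counts scaled to a common library size), the level of 3 counts, and these limits and the intervals of shares below cover counting error only. One library stood apart, since the 24-week replicate 3 held 78 counts of Xist, an RNA made from the inactive X chromosome, against 31677 to 59021 in the other 5. Of Y-linked genes only Ddx3y, Uty, Kdm5d and Eif2s3y were looked at, and their counts were 0 in all 6. Levels are given as CPM normalised with TMM factors. Ages were tested over 16157 genes with edgeR, with an adjusted p threshold of 0.05 (Benjamini-Hochberg over all of them) and with differences given as 24 weeks over 5 weeks. Of these genes, 28.8% passed, 15.5% higher and 13.3% lower at 24 weeks, or 2505 and 2141 genes, against 3229 and 1466 when libraries were scaled by total counts alone, which moved the median log2 fold change of all genes from 0.00 to 0.10. Of the 37 mitochondrial genes, 14 had enough counts to be tested, and 7 of them were higher, 2 were lower and 5 did not pass. Another 10 held some counts but too few for the test, and 13 had 0 counts in every library.

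Sequences are shown for places where nuclear copies, gene overlaps or tRNA genes are described, and all are GRCm38 letters of the sense strand of the gene. The first set compares mitochondrial genes with copies on chromosome 1, where the capital letter marks the single base that differs within the aligned length. Of mt-Nd3 the first 40 bases (chrM:9459-9498, plus strand) and those of Gm28438 (chr1:24613080-24613119, minus strand) are shown, which differ by T3C, the mitochondrial base first and counted from the start of the gene. For mt-Co1, bases 1063 to 1102 (chrM:6390-6429, plus strand) are set beside the start of the copy in Gm29216 (chr1:24616149-24616188, minus strand), which differ by A1066T. The last line holds bases 847 to 906 of mt-Nd4 (chrM:11013-11072, plus strand), with capitals from the first base after the end of the annotated copy Gm28439.
mt-Nd3: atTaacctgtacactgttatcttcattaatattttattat
Gm28438: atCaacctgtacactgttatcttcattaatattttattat
mt-Co1: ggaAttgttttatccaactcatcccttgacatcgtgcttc
Gm29216: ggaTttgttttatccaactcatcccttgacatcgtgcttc
mt-Nd4: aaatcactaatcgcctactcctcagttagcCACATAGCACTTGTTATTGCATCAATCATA

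The annotated copies on chromosome 1 numbered 7, and they followed each other in the order of the mitochondrial genes. Their aligned parts spanned chr1:24611535-24616188 on the minus strand, 4654 bases. These run against chrM:6390-11042, 4653 bases, from within mt-Co1 to within mt-Nd4. Beside Gm29216, Gm28438 and Gm28439 the copies are Gm28661 (mt-Co2), Gm10925 (mt-Atp6), Gm28437 (mt-Co3) and Gm10222 (mt-Nd4l). The copies of mt-Co2, mt-Atp6, mt-Co3, mt-Nd4l and mt-Nd4 were identical to the mitochondrial gene over 681, 678, 783, 294 and 876 aligned bases. Of these copies Gm10222 alone had a row in the count tables, with 7, 0 and 1 counts at 5 weeks and 2, 0 and 0 at 24 weeks. Annotated copies on other chromosomes were less similar, with identity of up to 97.6% (a copy of mt-Co1 on chromosome 2). Their identical windows also count in the shares of windows below, as for mt-Co1 and mt-Nd2. Copies were searched among annotated nuclear transcripts, so unannotated ones would have been missed.

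The protein genes fell into a group that could be counted and a group that could not. Windows of the read length were slid along each gene, and the share of windows with an identical annotated nuclear copy was 99.5% for mt-Co2, 99.5% for mt-Atp6, 99.9% for mt-Co3, 97.6% for mt-Nd3 and 98.5% for mt-Nd4l. Their counts lay between 0 and 14 in each library, so none was tested. For mt-Co2, a copper-binding subunit of cytochrome c oxidase, the counts were 2, 1 and 9 at 5 weeks and 4, 5 and 1 at 24 weeks. The counts of mt-Co3, another core subunit of that enzyme, were 5, 5 and 14, and then 0, 4 and 1. For mt-Atp6, which forms part of the proton channel of the ATP synthase, they were 3, 4 and 14 at 5 weeks and 1, 4 and 2 at 24 weeks. The complex I subunit genes mt-Nd3 and mt-Nd4l held at most 8 and 1 counts in any library. The part of the copies in these low counts was not tested, and the counts say nothing of how abundant the RNAs were.

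The sixth protein gene without a test, mt-Atp8, had 0 counts in all libraries, and no window of it had an annotated copy. It encodes a small ATP synthase subunit, is 204 bases long, and lies between mt-Co2 and mt-Atp6 inside the span of the chromosome 1 copies. The copies of these neighbours lie as far apart on chromosome 1 as the genes themselves do. The stretch between those copies was not searched, and its part in the 0 counts was not tested. The last 43 bases of mt-Atp8 are also the first 43 of mt-Atp6 (chrM:7927-7969, plus strand), shown here because pairs that touch the overlap are counted for neither gene, with the first codon of mt-Atp6 in capitals.
mt-Atp8 and mt-Atp6 overlap: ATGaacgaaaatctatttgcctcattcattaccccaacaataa

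The other 7 protein genes had smaller shares of windows with a copy, at 60.7% for mt-Nd4, 30.7% for mt-Co1, 3.09% for mt-Nd2 and 0% for mt-Nd1, mt-Nd5, mt-Nd6 and mt-Cytb. They held from 424 to 155300 counts per library, and in all 7 every 24-week library lay above every 5-week library. Over all genes tested, the ages did not overlap in 45.1%, and 23% had the 24-week libraries on top. By edgeR 6 of the 7 were higher at 24 weeks, and the median log2 fold change of the 7 was 2.17, beside 0.00 over all genes tested. In bulk RNA, more RNA per cell and more cells of a type with much of that RNA cannot be told apart.

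**Figure D1:**
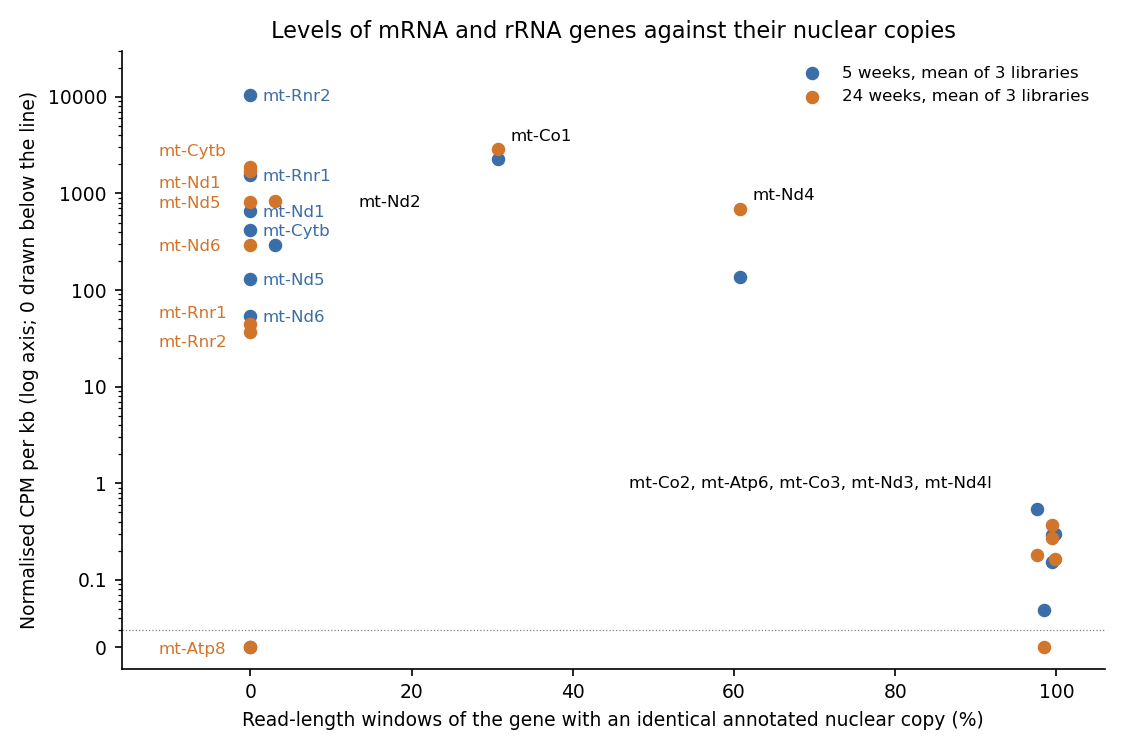
Mean normalised CPM per kb of gene (log axis, 0 drawn below the dotted line) of the 13 protein and 2 rRNA genes at 5 weeks (blue) and 24 weeks (orange) against the share of read-length windows with an identical annotated nuclear copy, as means of 3 libraries. The 5 genes above 97% lie below 1 CPM per kb, mt-Nd4 at 60.7% and mt-Co1 at 30.7% lie with the genes without copies, and mt-Atp8 lies at 0 on both axes.

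Among the complex I genes, mt-Nd5 (ENSMUSG00000064367, chrM:11742-13565, plus strand), which encodes a proton-pumping subunit of the membrane arm, was higher at 24 weeks. Its normalised CPM were 224, 228 and 263 at 5 weeks and 1457, 1549 and 1493 at 24 weeks. At 24 weeks the level was 6.29-fold higher (SE 0.13 on the log2 scale, adjusted p = 5.05e-07), and the 24-week libraries lay close together. For mt-Nd4 (ENSMUSG00000064363, chrM:10167-11544, plus strand), which encodes another proton-pumping subunit, the levels were 186, 188 and 195 CPM and then 992, 1112 and 773 CPM. That was a 5.06-fold difference (log2 fold change 2.34, SE 0.15, adjusted p = 3.73e-06), measured on the last part of the gene, which has no copy.

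The complex I genes mt-Nd1 and mt-Nd2, which follow the rRNA genes on the plus strand, were also higher at 24 weeks. For mt-Nd1 (ENSMUSG00000064341, chrM:2751-3707), whose subunit joins the membrane arm to the arm that takes up electrons, the levels were 622, 539 and 725 CPM at 5 weeks and 1609, 1844 and 1439 CPM at 24 weeks. The log2 fold change was 1.37 (SE 0.15, adjusted p = 0.000126). The levels of mt-Nd2 (ENSMUSG00000064345, chrM:3914-4951), which encodes a further proton-pumping subunit, were 276, 293 and 337 CPM and then 851, 942 and 795 CPM (log2 fold change 1.51, SE 0.13, adjusted p = 2.57e-05). In both genes the highest 5-week library stayed well below the lowest 24-week library.

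The complex I gene of the minus strand, mt-Nd6 (ENSMUSG00000064368, chrM:13552-14070), was also higher at 24 weeks. Its levels were 38.1, 35.9 and 9.80 CPM at 5 weeks and 154, 159 and 141 CPM at 24 weeks, so that the 5-week replicate 3 lay far below the other libraries of its age. The log2 fold change was 2.45 (SE 0.38, adjusted p = 0.000922), and 2.04 without that library. Counting was by strand, which kept apart the pairs of mt-Nd6 and those of mt-Nd5, with which it shares 14 bases on the opposite strand.

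For mt-Cytb (ENSMUSG00000064370, chrM:14145-15288, plus strand), the single mitochondrial gene of complex III, the levels were 470, 398 and 572 CPM at 5 weeks and 2204, 2300 and 1976 CPM at 24 weeks. That was 4.50-fold higher (SE 0.16 on the log2 scale, adjusted p = 1.03e-05). The gene mt-Co1 (ENSMUSG00000064351, chrM:5328-6872, plus strand), which encodes the catalytic subunit of cytochrome c oxidase, had levels of 3566, 3493 and 3588 CPM at 5 weeks and 4565, 5134 and 3650 CPM at 24 weeks. Its log2 fold change was 0.33 (SE 0.15, adjusted p = 0.133) and did not pass. The ages did not overlap, but the 24-week replicate 3 was only just above the 5-week libraries. Of 15 alternatives, 2 brought mt-Co1 past the threshold, scaling by total counts alone (0.43, adjusted p = 0.0492) and removal of a trend on transcript length (0.50, adjusted p = 0.0428), and over all of them its adjusted p ranged up to 0.436.

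Per kilobase of gene, mt-Co1 had the highest mean level of the 7 countable protein genes at both ages, 2297 ± 32.3 CPM per kb at 5 weeks and 2880 ± 485 at 24 weeks (SD, n = 3). At 5 weeks it was followed by mt-Nd1 (657 ± 97.6), mt-Cytb (420 ± 76.6), mt-Nd2 (291 ± 30.4), mt-Nd4 (138 ± 3.46), mt-Nd5 (131 ± 11.7) and mt-Nd6 (53.8 ± 30.4), where mt-Nd4 and mt-Nd5 differed by less than their spread. At 24 weeks the order was mt-Cytb (1888 ± 145), mt-Nd1 (1704 ± 213), mt-Nd2 (831 ± 71.7), mt-Nd5 (822 ± 25.5), mt-Nd4 (696 ± 125) and mt-Nd6 (292 ± 18.2). Neighbours that did not differ beyond their spread at 24 weeks were mt-Cytb with mt-Nd1, mt-Nd2 with mt-Nd5, and mt-Nd5 with mt-Nd4. When only the part of mt-Nd4 without a copy was counted as its length, its mean was 350 CPM per kb at 5 weeks and 1772 at 24 weeks.

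**Figure D2:**
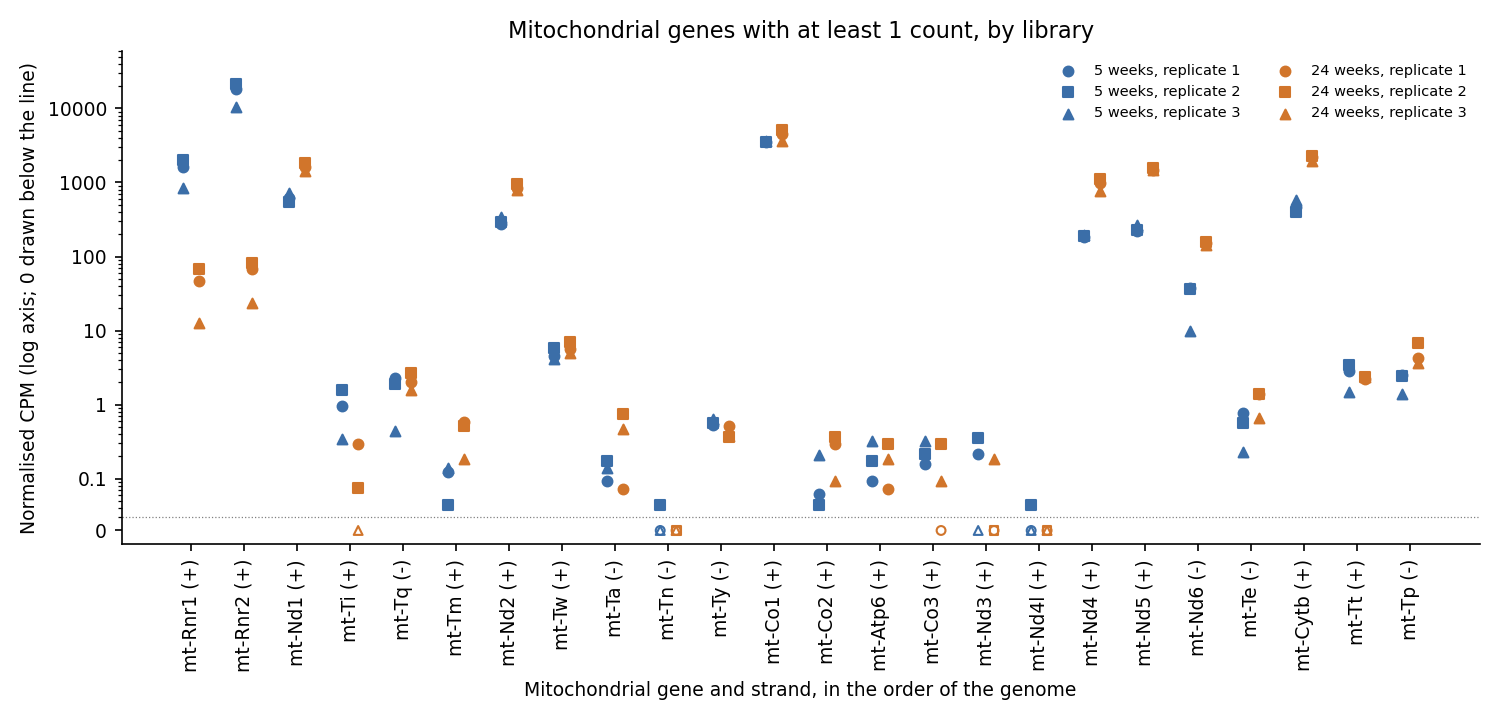
Normalised CPM (log axis, 0 drawn below the dotted line) in each library of the 24 mitochondrial genes with at least 1 count, in the order of the genome with the strand in brackets. Blue symbols are 5-week and orange symbols 24-week libraries, and the shape gives the replicate. The rRNA genes mt-Rnr1 and mt-Rnr2 lie higher at 5 weeks, while the countable protein genes lie higher at 24 weeks.

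The rRNA genes were lower at 24 weeks, in the direction opposite to the protein genes. For mt-Rnr2 (ENSMUSG00000064339, chrM:1094-2675, plus strand), which encodes the rRNA of the large ribosomal subunit, the levels were 18136, 21195 and 10520 CPM at 5 weeks and 67.4, 82.4 and 23.8 CPM at 24 weeks, a difference of 286-fold (SE 0.51 on the log2 scale, adjusted p = 3.5e-06). The levels of mt-Rnr1 (ENSMUSG00000064337, chrM:70-1024, plus strand), the rRNA of the small subunit, were 1595, 2012 and 840 CPM and then 47.1, 68.5 and 12.6 CPM. That was 34.5-fold lower (SE 0.53 on the log2 scale, adjusted p = 9.86e-05). In both genes replicate 3 was the lowest library at either age, and the ages lay far apart. Of all genes tested, 13.3% were lower by the same test. No window of either gene had an annotated nuclear copy.

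The rRNA genes differed in the size of their change. The ratio of mt-Rnr1 to mt-Rnr2 counts was 0.0880, 0.0949 and 0.0798 at 5 weeks and 0.699, 0.832 and 0.529 at 24 weeks, so that its geometric mean was 7.73-fold higher at 24 weeks without overlap of the ages (exact permutation test, two-sided, p = 0.1). With 3 libraries against 3, an exact permutation test cannot give a p below 0.1. How rRNA was treated when the libraries were made is not given in the sources used here, which name an Illumina RNA kit.

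Of gene counts, rRNA genes took 1.76 ± 0.632% in the younger and 0.0104 ± 0.00621% in the older mice, and protein genes 0.523 ± 0.0116% and 1.21 ± 0.164% (SD, n = 3, exact permutation p = 0.1 for each). As shares of all uniquely placed pairs, on genes or not, the differences between the ages were -1.01 percentage points for rRNA and 0.266 for protein genes, against -1.75 and 0.689 of gene counts. The protein share by library was 0.529, 0.510 and 0.531% at 5 weeks and 1.20, 1.38 and 1.06% at 24 weeks, with 95% Wilson intervals of at most 0.590% of the value on either side. The 5-week libraries were nearly alike in this share, whereas their rRNA shares were 1.94, 2.29 and 1.06%. Of all mitochondrial counts, rRNA genes held 75.6 ± 7.97% at 5 weeks and 0.817 ± 0.412% at 24 weeks. All mitochondrial genes together held 2.29 ± 0.624% and 1.22 ± 0.171% of gene counts. Small non-coding RNA genes, which are no members, also had a lower share at 24 weeks, at 6.82 ± 0.622% and 1.51 ± 0.120% of gene counts. At 5 weeks their share was highest in replicate 3 (7.51%), the library with the lowest rRNA share of that age. Their part in the rRNA result was not tested.

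**Figure D3:**
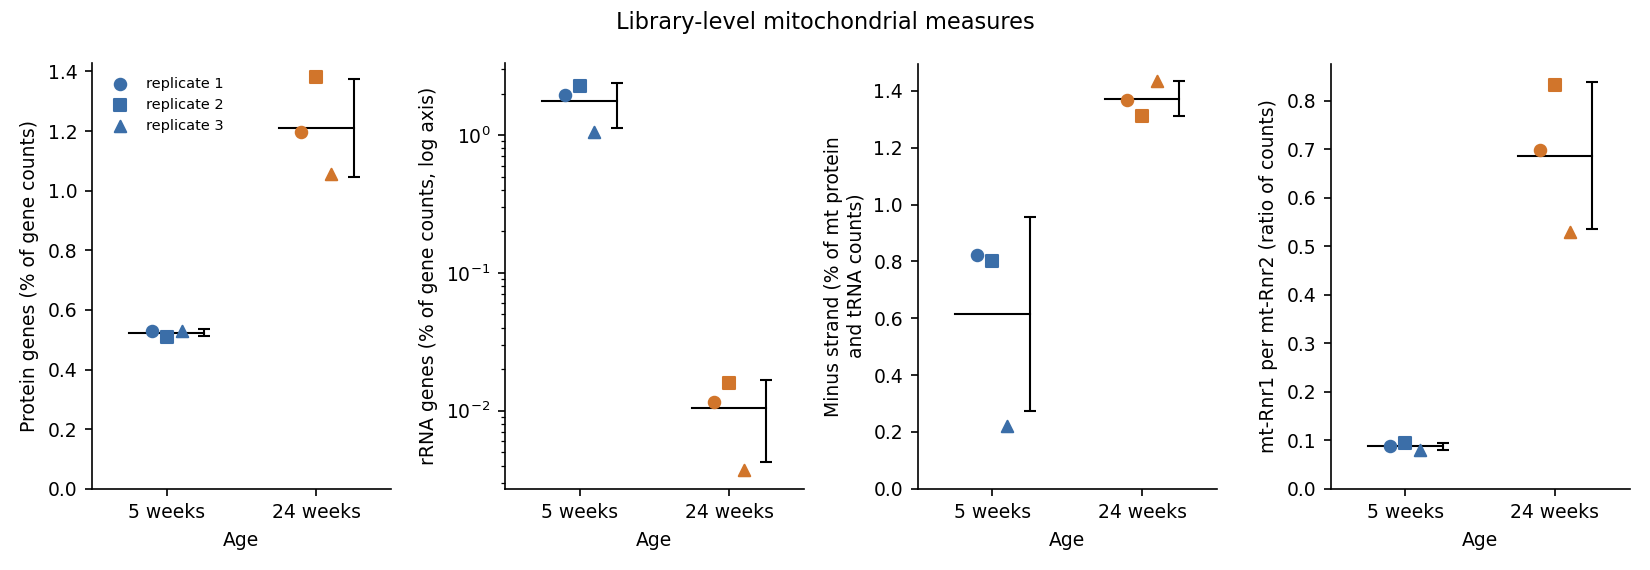
Library-level values at 5 weeks (blue) and 24 weeks (orange), from left to right the share of gene counts on mitochondrial protein genes, the share on mitochondrial rRNA genes (log axis), the share of mitochondrial protein and tRNA counts on the minus strand, and the ratio of mt-Rnr1 to mt-Rnr2 counts. Symbols are libraries, lines are means and bars are SD over 3 libraries, and the ages do not overlap in any of the panels.

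The protein counts were made up differently at each age. The share of mt-Co1 in the counts of all mitochondrial protein genes was 66.2, 67.5 and 63.0% at 5 weeks and 38.6, 39.4 and 35.6% at 24 weeks. The shares of the other 6 countable genes were all higher at 24 weeks without overlap (exact permutation p = 0.1 for each of the 7 genes, adjusted p = 0.1). The means were 8.83 and 18.5% for mt-Cytb, 4.39 and 12.9% for mt-Nd5, 3.50 and 8.15% for mt-Nd4, 11.6 and 13.9% for mt-Nd1, 5.57 and 7.39% for mt-Nd2 and 0.525 and 1.30% for mt-Nd6. Such shares depend on each other. When mt-Co1 and the other genes with a copy over more than 10% of their windows were left out, the shares of mt-Nd1 and mt-Nd2 were lower at 24 weeks, by differences of -11.6 and -4.40 percentage points, and the ages overlapped in the share of mt-Nd6 (exact permutation p = 0.2).

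The ratio of mt-Nd5 to mt-Nd1, which has no such dependence, was 0.360, 0.423 and 0.362 at 5 weeks and 0.906, 0.840 and 1.04 at 24 weeks, with geometric means 2.43-fold apart (exact permutation p = 0.1). For mt-Nd5 over mt-Co1 the means were 0.0671 ± 0.00547 and 0.343 ± 0.0576. Along the plus strand, the log2 fold changes of the protein genes were 1.37 (mt-Nd1), 1.51 (mt-Nd2), 0.33 (mt-Co1), 2.34 (mt-Nd4), 2.65 (mt-Nd5) and 2.17 (mt-Cytb), following the rRNA genes at -5.11 and -8.16.

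**Figure D4:**
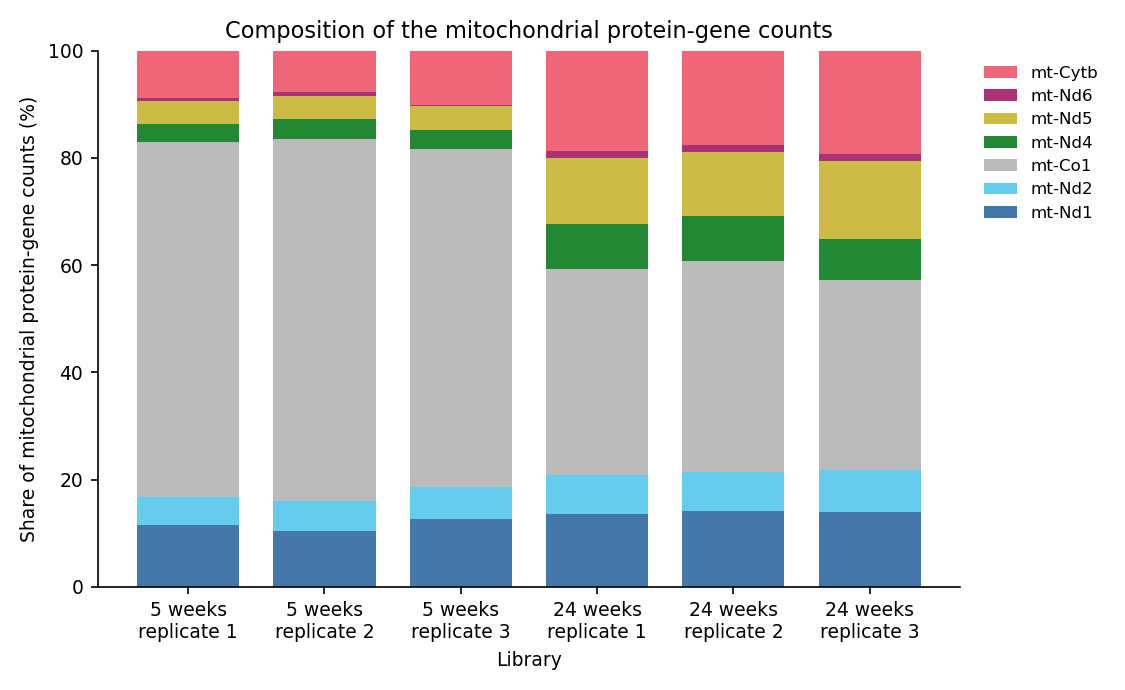
Share of the counts of all mitochondrial protein genes (bars stacked from 0 to 100%) that lay on each of the 7 countable genes, by library. The share of mt-Co1 is 63.0 to 67.5% at 5 weeks and 35.6 to 39.4% at 24 weeks, and each of the other 6 takes a larger share at 24 weeks.

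The tRNA genes are shorter than 1 read and took only 0.00131 ± 0.000415% of gene counts in the younger and 0.00184 ± 0.000450% in the older mice, with overlapping ages (exact permutation p = 0.2). A pair is counted for a tRNA gene when it touches that gene and no other on the same strand, so that it may lie mostly beside it. Of the 22 genes, 7 averaged 10 counts or more at one age or both, and their sequences are given because they are the tRNAs with values below. Letters are those of the sense strand with the anticodon in capitals, and positions are chrM:3706-3774 for mt-Ti (isoleucine, plus strand), chrM:3772-3842 for mt-Tq (glutamine, minus strand), chrM:4950-5016 for mt-Tw (tryptophan, plus strand), chrM:5260-5326 for mt-Ty (tyrosine, minus strand), chrM:14071-14139 for mt-Te (glutamate, minus strand), chrM:15289-15355 for mt-Tt (threonine, plus strand) and chrM:15356-15422 for mt-Tp (proline, minus strand).
mt-Ti: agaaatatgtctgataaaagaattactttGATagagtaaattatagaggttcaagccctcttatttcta
mt-Tq: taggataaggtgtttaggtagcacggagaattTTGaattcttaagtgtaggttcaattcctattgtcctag
mt-Tw: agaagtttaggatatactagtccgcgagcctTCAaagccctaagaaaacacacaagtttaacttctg
mt-Ty: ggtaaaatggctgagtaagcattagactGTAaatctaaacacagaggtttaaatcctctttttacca
mt-Te: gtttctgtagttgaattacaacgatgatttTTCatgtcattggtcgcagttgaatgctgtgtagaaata
mt-Tt: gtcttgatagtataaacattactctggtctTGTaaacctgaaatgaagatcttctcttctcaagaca
mt-Tp: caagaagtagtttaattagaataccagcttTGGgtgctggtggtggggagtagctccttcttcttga

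The tRNA genes differed in the room around them on their own strand. Leaving out mt-Tt, which has no further plus-strand gene after it in the coordinates, the genes with a mean of at least 10 counts had 70 to 1543 bases free of other genes of their strand on at least one side. The free stretches beside mt-Tq, mt-Ty, mt-Te and mt-Tp lie opposite mt-Nd2, mt-Co1 and mt-Cytb, whose pairs are on the other strand. Of the 12 tRNA genes with 0 counts in all libraries, 5 lie inside the span of the chromosome 1 copies, with 0 to 6613 free bases on the wider side (6613 for mt-Ts1). The other 7 had at most 32 free bases on each side that was measured. For mt-Tf, the first gene in the coordinates, only the side after it was measured (1 base), so its room is not known. The remaining 3, mt-Tm, mt-Ta and mt-Tn, had 32 to 1175 free bases on the wider side and held 0 to 10 counts per library. Of these, mt-Tm lay higher at 24 weeks without overlap in normalised CPM, on 1 to 8 counts per library. The same held for 23% of all genes tested.

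By edgeR 5 tRNA genes could be tested, of which mt-Tp was higher at 24 weeks and 4 did not pass. The shares over all genes tested were 15.5% higher and 13.3% lower. The levels of mt-Tp were 2.53, 2.45 and 1.41 CPM at 5 weeks and 4.31, 6.88 and 3.64 CPM at 24 weeks (a difference of 1.24 on the log2 scale, SE 0.31, adjusted p = 0.0125). This call rested on the 24-week replicate 2, the highest library, without which the value was 0.91 with an adjusted p of 0.0751, and over 15 alternatives the adjusted p ranged from 0.000877 to 0.0751. Counts of mt-Tp per count of mt-Nd6, the protein gene of the same strand, were 0.0929 ± 0.0442 at 5 weeks and 0.0323 ± 0.00944 at 24 weeks without overlap (exact permutation p = 0.1).

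For mt-Te the levels were 0.781, 0.569 and 0.231 CPM and then 1.39, 1.40 and 0.654 CPM, with overlapping ages (log2 fold change 1.19, SE 0.49, adjusted p = 0.092). Those of mt-Tq were 2.31, 1.88 and 0.439 CPM and then 2.04, 2.66 and 1.59 CPM (0.49, adjusted p = 0.499), and those of mt-Tw were 4.53, 5.78 and 4.14 CPM and then 5.62, 7.02 and 4.95 CPM (0.30, adjusted p = 0.321). The plus-strand gene mt-Tt had levels of 2.88, 3.46 and 1.502 CPM at 5 weeks and 2.19, 2.37 and 2.34 CPM at 24 weeks (-0.16, adjusted p = 0.739). The genes mt-Ti and mt-Ty did not pass the low-count filter of the test, although mt-Ti passed it and was called lower without the 5-week replicate 3 or the 24-week replicate 1. For mt-Ti, the counts were 31, 36 and 15 at 5 weeks and 4, 1 and 0 at 24 weeks, and its normalised CPM did not overlap between the ages. For mt-Ty they were 17, 13 and 28 and then 7, 5 and 4, which in normalised CPM was 0.531 to 0.647 at 5 weeks and 0.370 to 0.511 at 24 weeks. In 22.1% of all genes tested, every 24-week library likewise lay below every 5-week library.

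**Figure D5:**
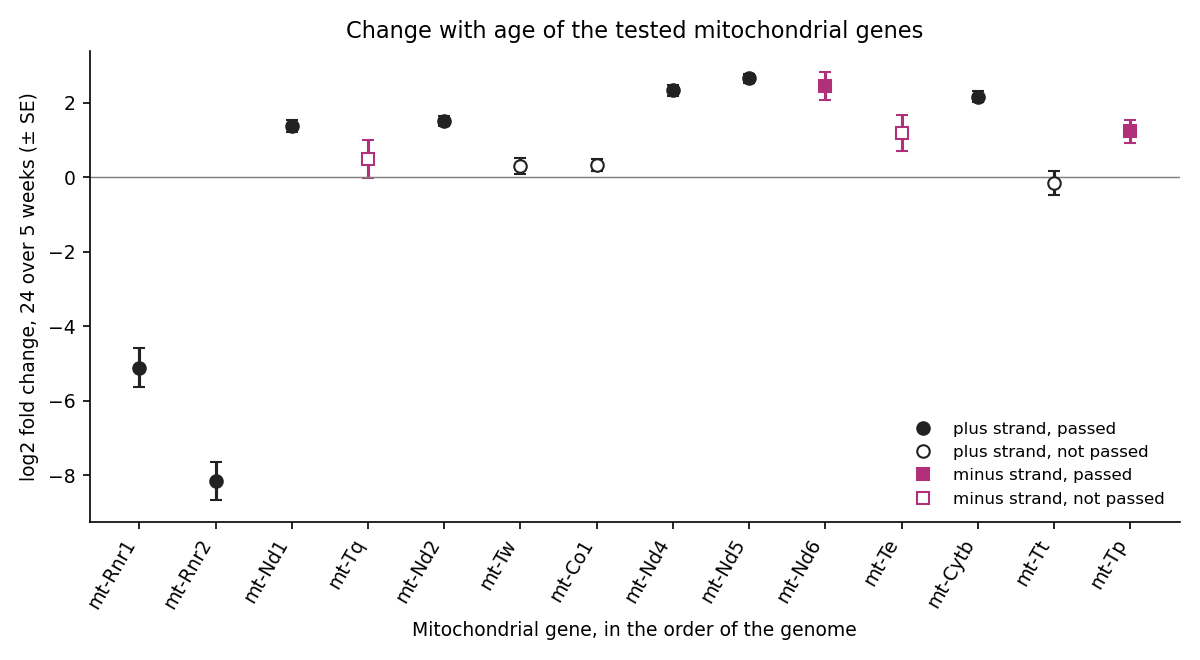
Log2 fold change (24 weeks over 5 weeks) with its SE from edgeR for the 14 mitochondrial genes tested, in the order of the genome. Black circles are plus-strand and magenta squares minus-strand genes, filled where the adjusted p was below 0.05. The rRNA genes lie at -5.11 and -8.16, the protein genes between 0.33 and 2.65, and the tRNA genes between -0.16 and 1.24.

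By strand, the minus-strand genes held 1420, 950 and 548 counts at 5 weeks and 2224, 2318 and 1580 at 24 weeks, most of them on mt-Nd6. As a share of mitochondrial protein and tRNA counts this was 0.822, 0.801 and 0.222% at 5 weeks and 1.37, 1.31 and 1.44% at 24 weeks, with 95% Wilson intervals of at most 8.72% of the value on either side. The ages did not overlap (exact permutation p = 0.1), and the difference of 0.757 percentage points was 0.561 without the 5-week replicate 3. The separation depended on which genes made up the total. Without the genes with a copy over more than 10% of their windows, mt-Co1 among them, the minus-strand share was 2.70, 2.75 and 0.661% at 5 weeks and 2.58, 2.51 and 2.52% at 24 weeks (exact permutation p = 1), with the 5-week replicates 1 and 2 above every 24-week library. The 24-week libraries were alike, while the 5-week replicate 3 was low. Relative to mt-Nd5 on the opposite strand, the counts of mt-Nd6 were 0.170, 0.157 and 0.0373 at 5 weeks and 0.106, 0.103 and 0.0944 at 24 weeks, with overlapping ages (exact permutation p = 1).

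The 5-week replicate 3 was the lowest library of its age in mt-Nd6, both rRNA genes and 6 of the 7 tRNA genes with values above, mt-Ty excepted, but not in any of the 6 countable protein genes of the plus strand, in which it was the highest. It was also the deepest library, and its share of counts on small non-coding RNA genes was 7.51%, above the 6.30 and 6.65% of the others of its age. The part of these in its low values was not tested. The 24-week replicate 3, which stood apart by Xist, had the lowest rRNA levels of all libraries. Without it the log2 fold changes were 2.65 for mt-Nd5, 0.45 for mt-Co1, -4.68 for mt-Rnr1 and -7.80 for mt-Rnr2. All 9 mitochondrial calls held without the 5-week replicate 3, and they also held without the 24-week replicate 3.

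Few nuclear genes that serve the mitochondrial genome passed the test, beside 28.8% of all genes tested (15.5% higher and 13.3% lower). Of 19 that copy and transcribe mitochondrial DNA, all of them tested, edgeR called 0 higher and 1 lower (2 and 2 at an unadjusted p under 0.05, and 0 and 1 by both DESeq2 and limma-voom), with a median log2 fold change of -0.09 beside 0.00 over all genes tested. The lower one was Polg, the catalytic subunit of the mitochondrial DNA polymerase, at 107, 105 and 135 CPM at 5 weeks and 86.4, 88.9 and 84.6 CPM at 24 weeks (a difference of -0.42 on the log2 scale, SE 0.12, adjusted p = 0.0235). Leaving out any one of the 24-week libraries ended the call at values of much the same size (-0.42, -0.44 and -0.40), as did scaling by total counts alone (-0.31), so that 11 of 15 alternatives kept it, with adjusted p from 0.00263 to 0.0787. The mitochondrial RNA polymerase Polrmt had a log2 fold change of 0.11 (adjusted p = 0.675), the transcription and packaging factor Tfam -0.38 (adjusted p = 0.0786), the initiation factor Tfb2m 0.26 (adjusted p = 0.373) and the DNA helicase Twnk -0.24 (adjusted p = 0.261). Without the 5-week replicate 3, Tfam passed at -0.52 and Polrmt at 0.35, whereas without the 5-week replicate 1 the value of Polrmt was -0.032. Over 15 alternatives Tfam passed in 3 and Polrmt in 1.

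Of 34 genes that process, modify or degrade mitochondrial RNA, 1 was higher and 2 were lower, with a median log2 fold change of -0.09. The shares over all genes tested were 15.5% higher and 13.3% lower. Hsd17b10, a subunit of the enzyme that cuts the 5′ ends of mitochondrial tRNAs, had levels of 16.2, 14.7 and 14.7 CPM at 5 weeks and 9.71, 7.47 and 10.7 CPM at 24 weeks (a difference of -0.71 on the log2 scale, SE 0.16, adjusted p = 0.00779). Trmu, which modifies mitochondrial tRNAs, was lower (-0.39, adjusted p = 0.0492), and Fastkd1, of a family of mitochondrial RNA-binding proteins, was higher (0.47, adjusted p = 0.0439), both close to the threshold and kept in 3 and 9 of 15 alternatives. Lrpprc and Slirp, partners in a complex that stabilises mitochondrial mRNAs, had log2 fold changes of -0.19 (adjusted p = 0.177) and -0.53 (adjusted p = 0.0697). Over both lists, with 1 gene higher and 3 lower, the counts were 2 and 8 without the 5-week replicate 3, while 1 gene was lower without the 24-week replicate 1, 2 or 3.

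The nuclear-encoded subunits of the same complexes mostly went the other way from the mitochondrial ones. Over all genes tested, 15.5% were higher and 13.3% were lower. Of 36 complex I genes, 1 was higher and 22 were lower, with a median log2 fold change of -0.53. Of 36 genes of complexes III, IV and V, 1 was higher and 24 were lower, with a median of -0.57. The summed levels ranged from 926 to 1003 CPM at 5 weeks and from 662 to 696 CPM at 24 weeks for complex I, and from 2024 to 2120 and from 1376 to 1438 CPM for the other list. With a trend on transcript length removed, 10 complex I genes were lower, and in the other list 17 were lower and 2 higher. Of the complex I genes, 14 and 13 were lower without the 5-week replicate 1 and the 24-week replicate 2.

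Markers of some other cells also differed between the ages. Beside the counts below, 15.5% of all genes tested were higher and 13.3% were lower at 24 weeks. Of 12 endothelial markers 10 were higher at 24 weeks, with summed levels of 303 to 352 CPM at 5 weeks and 648 to 691 CPM at 24 weeks, and of 10 mural cell markers 8 were higher (170 to 201.9 and 327 to 367 CPM). Border macrophage markers were lower in 5 of 7 (973 to 1302 and 506 to 611 CPM). Microglia markers, with 1 of 12 higher and 4 lower, had summed levels of 29927 to 34100 CPM and 25230 to 28024 CPM. Oligodendrocyte markers were lower in 4 of 8, astrocyte markers in 3 of 8, neuron markers were higher in 2 and lower in 2 of 8, and choroid plexus and ependymal markers were higher in 1 and lower in 1 of 6 tested. None of the neutrophil and monocyte markers (7 tested), of the lymphocyte markers (2 tested) or of the erythroid markers (5 tested) passed by edgeR, also at an unadjusted p under 0.05, or by DESeq2 or limma-voom. No marker of any list was at 0 in all libraries, and the part of other cells in the mitochondrial results was not tested.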

How the data were processed

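The deposited values are raw counts of read pairs per gene, 1 table per library, with 38924 Ensembl genes and 5 rows that name no gene. Before deposit the authors had used trim_galore on the reads, TopHat2 2.0.13 for alignment (GRCm38) and HTSeq 0.6.1, on the reverse strand and in union mode, to count pairs with a unique position on Ensembl exons. A pair with several best positions, or touching more than 1 gene on its strand, adds to no gene. Alignments at several positions were 34.2% (5 weeks) and 22.9% (24 weeks) of the counts of all rows, pairs on no gene 41.0 and 52.0% of unique pairs, and pairs on more than 1 gene 1.47 and 1.05%. These rows were left out of library sizes and tests.

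The test between ages was that of edgeR 4.0.16, run in R 4.3.3 (TMM factors, edgeR's default low-count filter by age, quasi-likelihood test, Benjamini-Hochberg over all 16157 genes tested). Ratios and shares per library were compared with exact two-sided permutation tests in SciPy 1.17.1, on log2 values for ratios, and intervals are 95% Wilson. The fit was tested on simulated data. GENCODE mouse release 21 (GRCm38) gave symbols, strands and positions, for 37607 of the identifiers. No genome sequence was used: copies were searched with BLAST 2.17.0 among 141730 annotated nuclear transcripts (at least 90% identity over 100 bases), and windows of the read length were compared for identity. The search had been planned against the genome.

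Every mitochondrial gene is accounted for. The protein and rRNA genes, tRNA genes with a mean of at least 10 counts at either age, up to 4 upkeep genes per list and direction with the smallest p that passed, and Polrmt, Tfam, Tfb2m, Twnk, Lrpprc and Slirp are named. Nuclear copies with a mean of at least 50 counts were to be named for their counts and none had so many, so Gm10222 was chosen after its values were seen. The members, the lists and the tests were chosen with earlier results of these data known.

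The following were tried as alternatives: RLE size factors, scaling by total counts alone, library sizes without mitochondrial genes, removal of a trend on transcript length, DESeq2 1.42.0, limma-voom (limma 3.58.1), no filter, at least 50 counts in every library of either age, the replicate number as a block, each library left out, other denominators for the shares, and windows of other lengths.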

Additional observations from a re-analysis of the deposited data

How the results depend on the processing

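Of the 9 mitochondrial genes called by edgeR, all 9 kept their call and direction under each alternative, except mt-Tp without the 24-week replicate 2. With each library left out in turn, the counts of protein genes stayed at 6 higher and those of rRNA genes at 2 lower, with 0 in the other direction by any tool, those of tRNA genes ranged from 0 to 2 higher and from 0 to 1 lower, and those of the 53 upkeep genes from 0 to 2 higher and from 1 to 8 lower. The lower tRNA gene was mt-Ti, which is outside the main test and was also called with no low-count filter (1 gene). Of the 2 higher tRNA genes without the 24-week replicate 1 or 3, 1 was mt-Tp and the other is likewise outside the main test. With the length trend removed, 2 tRNA genes were higher (mt-Te added) and 2 upkeep genes. Upkeep genes numbered 5 higher and 1 lower with total counts only, 0 and 6 with no filter, and 2 higher with at least 50 counts in every library of either age. The direction of mt-Tt, which passed nowhere, reversed with the length trend removed (0.16), with limma-voom (0.0035) and among the values with 1 library left out (-0.45 to 0.075), as did that of Polrmt with 1 library left out (-0.032 to 0.347). The shares of mt-Nd1 and mt-Nd2 reversed without the genes with copies, which removes mt-Co1 from the total (-11.6 and -4.40 percentage points). Nothing else reversed. Without those genes the minus-strand share also overlapped between the ages (difference 0.501, exact permutation p = 1), as did that of mt-Nd6 (0.652, p = 0.2). The causes of these changes were not tested. Of all uniquely placed pairs, the share differences were 0.266 (protein), -1.01 (rRNA) and 0.000107 (tRNA) percentage points. Without single libraries, lower complex I genes ranged from 13 to 24 and lower genes of the other complexes from 19 to 27. Shares, the strand share and the rRNA ratio kept their direction with each library left out (protein share difference 0.603 to 0.767 percentage points, rRNA -2.10 to -1.49, tRNA 0.000284 to 0.000722, minus strand 0.561 to 0.861, mt-Co1 share -29.0 to -26.6, log2 of the rRNA ratio 2.80 to 3.13). The replicate number as a block kept 6 protein genes higher and 2 rRNA genes lower. The numbers did not pair the libraries, since same-numbered libraries correlated at 0.066, 0.089 and -0.045 in their deviations, and not every library correlated best with its own number. With windows of 50 bases, as with longer ones, 7 genes again had copies over more than 10% of windows. The 24-week libraries are shallower, which limits what the few counts of the tRNA genes can show.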
